A study of Mus musculus with 6 samples.

Results

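The genes of cholesterol synthesis, together with the regulators and sterol carriers linked to the transcription factor SREBP2, were followed in mouse ileum. The group was set by a list of 28 gene symbols, and each symbol was matched to the probe sets that the platform annotation gives to it alone. Of these, 25 had such a probe set and all 25 passed the filter on low signal, out of 7919 genes tested. Acat2, Insig1 and Soat2 were not analysed here. The 25 genes comprised 7 enzymes of the isoprenoid steps, 12 enzymes of the squalene and sterol steps, 3 genes of SREBP2 control and 3 genes of sterol transport.

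The mice were wild-type males aged 8 to 10 months, of mixed C57BL/6:129Sv strain, and ileum (distal small intestine) was taken 5 days after surgery. Sham_Vehicle mice were operated on without ligation and given vehicle, BDL_Vehicle mice received vehicle and ligation of the common bile duct, and BDL_GW4064 mice had the ligation and received GW4064 by gavage. GW4064 is a synthetic agonist of FXR, the nuclear bile acid receptor, and was dosed at 100 mg/kg/day over the 2 days leading to surgery and the 5 days that followed. Each group had 2 arrays, and because no label says that they came from separate animals, p-values reflect only how far these samples scatter, which can be technical. Ligated mice have no bile flow into the gut, and a sham group on GW4064 was not analysed here, so the GW4064 difference was measured in ligated mice.

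Cholesterol is built from acetyl-CoA through mevalonate, the isoprenoid diphosphates, squalene and lanosterol. SREBP2 is held in the endoplasmic reticulum by the sterol-sensing protein SCAP and the INSIG proteins. When membrane sterol is low it is carried to the Golgi, cleaved, and released to the nucleus, where it activates the genes of this pathway. In the intestine, bile acids are needed to take up dietary and biliary cholesterol, and enterocytes both absorb cholesterol and synthesise it.

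Signals were MAS5 intensities scaled to the same trimmed mean of 200.1 in every array, and are compared between arrays within a probe set, not between genes. Bulk tissue was measured, so fewer cells of a type and less RNA per cell cannot be told apart. Of 7 enterocyte markers tested, Fabp2 (5719.9 to 6330.5) and Vil1 (3274.1 to 3931.3) varied little between the 6 arrays, while Fabp1 (942.6 to 3514.3) and Lct (1493.0 to 3581.5) varied widely. The FXR target Fgf15 read 316.2 and 479.6 in Sham_Vehicle, 5.5 and 3.4 in BDL_Vehicle, and 972.1 and 809.6 in BDL_GW4064, in the order of the replicates. Sham_Vehicle replicate 2 stood apart in its 3' to 5' actin ratio, a measure of RNA quality, with 1.73 against 1.09 to 1.22 in the others. Its 3' to 5' Gapdh ratio was also the highest but closer to the rest, with 0.88 against 0.70 to 0.81. A control probe set for 18S rRNA split the arrays into a set of Sham_Vehicle and BDL_Vehicle replicate 1 (67.3 to 88.7) and a set of BDL_Vehicle replicate 2 and BDL_GW4064 (8.6 to 13.3). Where leaving out an array moved a value of an enzyme with full statistics by over 1.5 times, the value without it is given.

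The first comparison set ligated mice against sham-operated mice, both on vehicle. In BDL_Vehicle the synthesis enzymes had higher signals than in Sham_Vehicle, led by squalene epoxidase Sqle (2.18-fold), squalene synthase Fdft1 (2.06-fold), the sterol methyl oxidase Msmo1 (1.99-fold) and farnesyl diphosphate synthase Fdps (1.96-fold). Of 19 synthesis enzymes, 18 had higher and 1 had lower values, with a median log2 difference of 0.55, while the median over all 7919 genes was -0.012 and 47.9% of them had higher values. The 6 genes of SREBP2 control and transport did not share this shift, with 2 higher, 4 lower and a median of -0.062. No gene of the 25 passed an adjusted p of 0.05 in limma, a threshold that 0.0295% of 13575 probe sets passed in this comparison. The smallest adjusted p among them was 0.2, for Sqle.

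At an unadjusted limma p under 0.05, 11 of the 25 genes were higher and 1 was lower, against 2.95% and 3.06% of all genes. All 11 were synthesis enzymes, and both BDL_Vehicle arrays lay above both Sham_Vehicle arrays in 14 of the 19 enzymes, against 18.1% of all genes. The 11 became 7 when Sham_Vehicle replicate 2 was left out, and also 7 when BDL_Vehicle replicate 2 was. A term for the array set gave 7 too. That term takes the ligation difference from BDL_Vehicle replicate 1 alone, as leaving out BDL_Vehicle replicate 2 does, so these are not separate checks. Over the 25 genes the median log2 difference was 0.37, and it was 0.58 without BDL_Vehicle replicate 1. Of the 12 genes with full statistics, 4 had ligation differences that moved by over 1.5 times with 1 array. Without Sham_Vehicle replicate 2, Fdps went from 0.97 to 0.56, Nsdhl from 0.55 to 0.36 and Pmvk from 0.50 to 0.31, and without BDL_Vehicle replicate 2, Msmo1 went from 0.99 to 0.61.

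Because most of these enzymes differed in the same direction and are textbook targets of SREBP2, the bases upstream of their start sites are shown for the 6 with the smallest ligation p that the RefSeq promoter table (GRCm38.p6) holds. Each sequence is the 250 bases before the annotated start, 5′ to 3′ on the gene's own strand. Capitals mark a sterol regulatory element core, searched as TCACNNCA, and the CCAAT box bound by NF-Y, searched as CCAAT, which reads ATTGG where it lies on the opposite strand. Cyp51 is at chr5:4104698-4104947 on the minus strand, Hmgcs1 at chr13:119690101-119690350 on the plus strand and Idi1 at chr13:8885356-8885605 on the plus strand. Msmo1 is at chr8:64733579-64733828 on the minus strand, Mvd at chr8:122443423-122443672 on the minus strand and Lss at chr10:76531355-76531604 on the plus strand.
Cyp51: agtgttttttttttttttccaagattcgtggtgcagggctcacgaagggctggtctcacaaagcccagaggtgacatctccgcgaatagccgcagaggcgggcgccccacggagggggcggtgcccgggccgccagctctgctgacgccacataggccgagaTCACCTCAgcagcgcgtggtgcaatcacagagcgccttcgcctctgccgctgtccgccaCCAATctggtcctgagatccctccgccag
Hmgcs1: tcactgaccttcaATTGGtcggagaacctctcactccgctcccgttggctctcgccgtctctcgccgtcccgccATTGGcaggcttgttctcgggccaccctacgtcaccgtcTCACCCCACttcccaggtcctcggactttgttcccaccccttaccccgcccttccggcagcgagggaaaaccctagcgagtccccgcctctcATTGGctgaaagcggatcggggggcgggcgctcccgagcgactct
Idi1: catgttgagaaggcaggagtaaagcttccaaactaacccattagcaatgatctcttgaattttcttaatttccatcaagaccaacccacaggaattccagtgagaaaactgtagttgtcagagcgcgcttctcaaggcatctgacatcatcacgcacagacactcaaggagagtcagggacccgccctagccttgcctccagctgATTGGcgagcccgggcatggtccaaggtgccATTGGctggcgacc
Msmo1: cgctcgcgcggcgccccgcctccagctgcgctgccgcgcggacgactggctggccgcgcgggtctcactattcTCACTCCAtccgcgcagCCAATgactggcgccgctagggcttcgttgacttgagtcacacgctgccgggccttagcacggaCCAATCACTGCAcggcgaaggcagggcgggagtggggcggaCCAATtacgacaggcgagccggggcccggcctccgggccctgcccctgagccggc
Mvd: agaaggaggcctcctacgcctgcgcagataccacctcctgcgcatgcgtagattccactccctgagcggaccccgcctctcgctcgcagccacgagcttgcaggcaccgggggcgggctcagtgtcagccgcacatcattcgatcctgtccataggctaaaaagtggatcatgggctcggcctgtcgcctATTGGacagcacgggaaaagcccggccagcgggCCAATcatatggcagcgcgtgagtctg
Lss: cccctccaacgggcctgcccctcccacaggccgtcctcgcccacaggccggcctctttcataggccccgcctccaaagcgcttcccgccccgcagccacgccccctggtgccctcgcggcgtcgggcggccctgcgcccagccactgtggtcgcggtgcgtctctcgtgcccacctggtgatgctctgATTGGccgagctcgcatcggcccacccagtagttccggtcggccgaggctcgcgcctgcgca
Both strands were searched, and in Msmo1 a CCAAT box and a sterol core overlap by 1 base. Hmgcs1 alone of the 22 members in the table held the longer core TCACNCCAC, written in full in its sequence at 137 to 129 bases before the start, and 1.23% of all genes in the table hold it. The shorter core was found upstream of 9 of 22 members, against 13.0% of all genes. The 9 were Cyp51, Dhcr7, Hmgcs1, Msmo1, Pmvk and Srebf2, with Insig2, lower after ligation, and Hsd17b7 and Sc5d, whose groups overlapped. Of the 6 sequences shown, Cyp51, Hmgcs1 and Msmo1 held it, and Idi1, Mvd and Lss did not. A CCAAT box was found upstream of 20 of 22, against 37.5%. A match describes the letters in this window and is not a measured binding site.

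The isoprenoid steps run from acetyl-CoA to farnesyl and geranylgeranyl diphosphate. Hmgcs1, the cytosolic HMG-CoA synthase at the head of the pathway, read 2332.2 and 2108.3 in Sham_Vehicle, 3207.7 and 3626.0 in BDL_Vehicle, and 2547.6 and 2938.5 in BDL_GW4064. On this probe set, its brightest, the 3 groups did not overlap and BDL_GW4064 lay in the middle. The ligation log2 difference was 0.62 ± 0.12 (SE, limma adjusted p = 0.443). All 4 probe sets of Hmgcs1 had higher values in BDL_Vehicle, with log2 differences of 0.53 to 0.85.

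Mvk, which phosphorylates mevalonate, read 162.0 and 121.9 in Sham_Vehicle, 171.1 and 233.5 in BDL_Vehicle, and 192.2 and 177.2 in BDL_GW4064. Pmvk, the next kinase, read 182.2 and 139.4, then 203.5 and 254.2, then 170.3 and 157.2, in the same order of groups. For Pmvk the ligated vehicle arrays stood above all others, and the BDL_GW4064 signals fell between the Sham_Vehicle signals. Its ligation log2 difference was 0.50 ± 0.20 (SE, limma adjusted p = 0.751). Mvd, which decarboxylates mevalonate diphosphate, read 162.9 and 130.7 in Sham_Vehicle, 231.8 and 304.0 in BDL_Vehicle, and 173.1 and 242.1 in BDL_GW4064. Its ligation log2 difference was 0.85 ± 0.23 (SE, limma adjusted p = 0.693), and its other probe set gave 1.09. Mvd signals in BDL_GW4064 overlapped those in BDL_Vehicle.

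Idi1, the isomerase of isopentenyl diphosphate, read 813.1 and 673.7 in Sham_Vehicle, 1189.9 and 1196.3 in BDL_Vehicle, and 788.2 and 1022.8 in BDL_GW4064. The BDL_Vehicle arrays nearly coincided and lay above the other 4. The ligation log2 difference was 0.69 ± 0.16 (SE, limma adjusted p = 0.608). Fdps, which makes farnesyl diphosphate, read 882.4 and 498.7, then 1065.9 and 1601.7, then 1092.0 and 1168.1. Its ligation log2 difference was 0.97 ± 0.28 (SE, limma adjusted p = 0.745), and both the Sham_Vehicle and the BDL_Vehicle arrays differed widely from each other. Ggps1, which diverts farnesyl diphosphate to protein prenylation instead of sterols, read 125.5 and 102.0, then 102.6 and 136.4, then 84.2 and 113.3, with the groups overlapping. Its 4 probe sets had ligation log2 differences of -0.077 to 0.43 and did not share a sign.

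**Figure D1:**
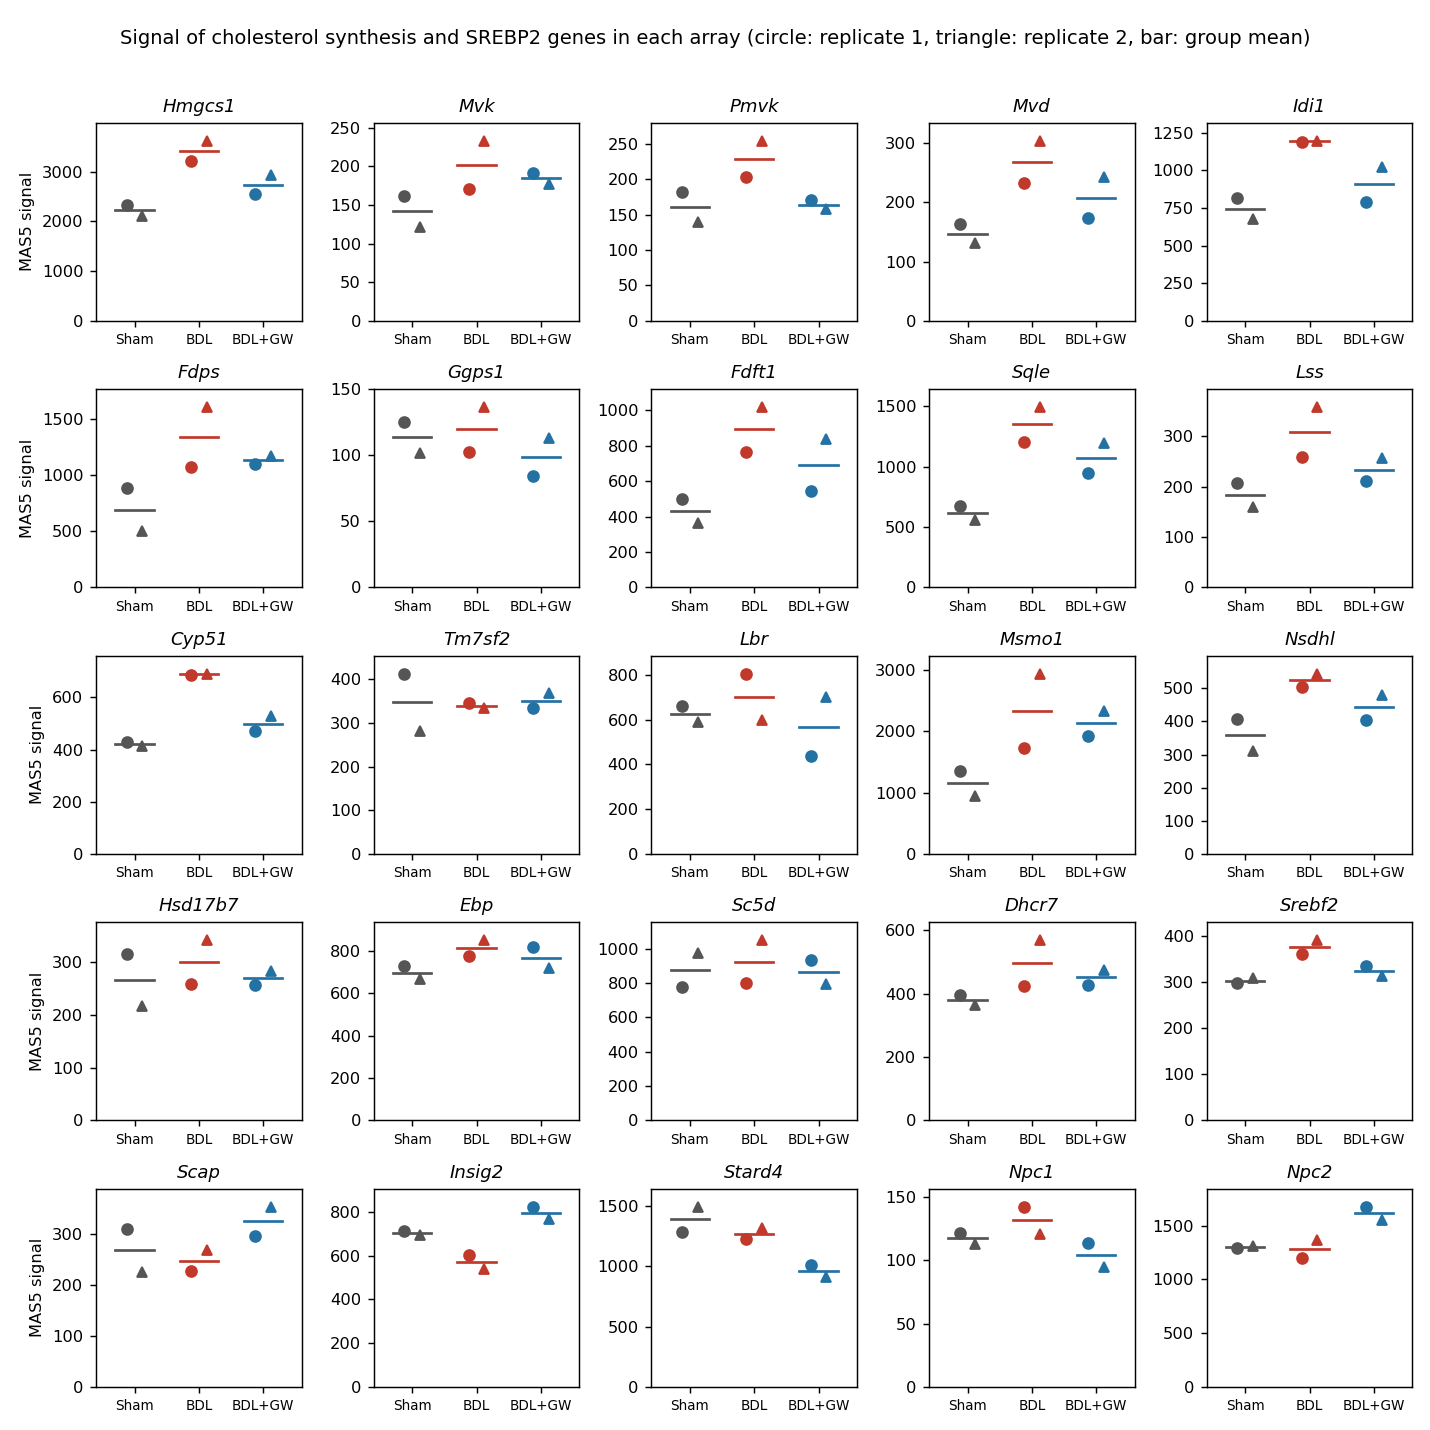
MAS5 signal (vertical axis, from 0) of each of the 25 genes in the 6 arrays, with Sham_Vehicle in grey, BDL_Vehicle in red and BDL_GW4064 in blue, circles for replicate 1, triangles for replicate 2 and a bar at the group mean. In 20 of 25 panels the BDL_Vehicle mean is the highest of the 3, and Insig2, Scap, Npc2, Stard4 and Tm7sf2 are the other 5.

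From farnesyl diphosphate the pathway commits to sterols, and with all 6 arrays its first 2 enzymes had the highest ligation differences of the 25 genes. Fdft1, which joins 2 farnesyl groups into squalene, read 500.2 and 364.8 in Sham_Vehicle, 766.2 and 1018.7 in BDL_Vehicle, and 545.0 and 836.1 in BDL_GW4064. The ligation log2 difference was 1.04 ± 0.25 (SE, limma adjusted p = 0.608), and its second bright probe set gave 1.07. Sqle, which oxidises squalene and is a rate-controlling step, read 674.2 and 558.7, then 1206.8 and 1491.4, then 947.6 and 1198.3. No Sqle array of a group overlapped one of another group. The ligation log2 difference of 1.12 ± 0.17 (SE) missed the threshold over all probe sets (limma adjusted p = 0.2).

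Lss, the cyclase that forms lanosterol, read 208.1 and 159.0 in Sham_Vehicle, 258.5 and 357.9 in BDL_Vehicle, and 210.3 and 256.9 in BDL_GW4064. Its ligation log2 difference was 0.73 ± 0.22 (SE, limma adjusted p = 0.751). Cyp51, the lanosterol demethylase, read 428.2 and 413.5, then 687.8 and 691.1, then 469.8 and 529.1. The arrays of each group were close for Cyp51, with BDL_GW4064 between the others, and the ligation log2 difference was 0.71 ± 0.13 (SE, limma adjusted p = 0.437). A second, dimmer Cyp51 probe set gave 0.57, and on it BDL_GW4064 (75.4 and 93.8) overlapped Sham_Vehicle (91.7 and 84.8).

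The sterol nucleus is then reduced and loses its methyl groups. Msmo1, which oxidises the methyl groups at carbon 4, read 1352.0 and 948.4 in Sham_Vehicle, 1730.0 and 2943.3 in BDL_Vehicle, and 1930.9 and 2337.8 in BDL_GW4064. Here the BDL_GW4064 arrays fell between the BDL_Vehicle arrays, and the ligation log2 difference was 0.99 ± 0.26 (SE, limma adjusted p = 0.68). Nsdhl, the decarboxylating dehydrogenase of the same demethylation, read 407.8 and 311.5, then 503.6 and 544.5, then 405.6 and 479.0. Its ligation log2 difference was 0.55 ± 0.17 (SE, limma adjusted p = 0.751). Hsd17b7, the ketoreductase of that complex, read 316.3 and 216.9, then 258.7 and 342.1, then 257.1 and 284.2, and overlapped between all groups. Its 2 probe sets gave ligation log2 differences of 0.18 and 0.73.

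The other 5 enzymes of the sterol steps had ligation log2 differences of -0.0052 to 0.37. Tm7sf2 and Lbr, which both carry sterol C14 reductase activity, had log2 ligation differences of -0.01 ± 0.20 and 0.15 ± 0.24 (SE). Tm7sf2 read 412.7 and 280.8 in Sham_Vehicle, 344.8 and 333.8 in BDL_Vehicle, and 333.9 and 368.4 in BDL_GW4064, and Lbr read 663.3 and 590.2, 806.7 and 599.1, and 438.4 and 701.1. Ebp, the isomerase of the sterol double bond, read 730.1 and 666.5, then 776.4 and 851.5, then 821.0 and 717.9. Sc5d, the C5 desaturase, read 775.0 and 975.1, then 799.8 and 1049.3, then 931.4 and 795.7. The 3 groups overlapped for Sc5d, and its 2 probe sets differed in sign after ligation (0.075 and -0.015). Dhcr7, the last reductase before cholesterol, read 396.0 and 363.6, then 424.8 and 568.8, then 427.7 and 476.1, with BDL_Vehicle above Sham_Vehicle in both arrays and a ligation log2 difference of 0.37 ± 0.17 (SE). The limma adjusted p of these 5 genes lay between 0.751 and 0.996.

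The regulators did not follow the enzymes as a set. Srebf2, which encodes SREBP2 and is itself an SREBP2 target, read 298.1 and 308.9 in Sham_Vehicle, 361.2 and 391.1 in BDL_Vehicle, and 335.3 and 312.2 in BDL_GW4064. The ligation log2 difference of its brighter probe set was 0.31 ± 0.14 (SE, limma adjusted p = 0.751), and the other probe set gave 0.85. Srebf2 groups did not overlap and kept the order seen in most enzymes. Insig2, an anchor that retains the SREBP2 and SCAP complex, went the other way and read 712.0 and 695.5, then 603.9 and 539.6, then 824.4 and 768.9. On this probe set, its brightest, it was lower in both BDL_Vehicle arrays than in any other array. Its ligation log2 difference was -0.30 ± 0.13 (SE, limma adjusted p = 0.751), and all 3 Insig2 probe sets were lower after ligation. Scap, the sterol sensor, read 310.2 and 225.9, then 227.8 and 268.2, then 297.1 and 354.2, so that ligation and sham overlapped.

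The carriers differed little after ligation. Stard4, a cytosolic sterol transfer protein known as an SREBP2 target, read 1288.7 and 1497.3 in Sham_Vehicle, 1228.0 and 1317.8 in BDL_Vehicle, and 1009.9 and 914.6 in BDL_GW4064. By brightest probe sets it was the 1 member whose group means stepped down from sham through ligation to GW4064. On its other probe set the BDL_Vehicle mean was the highest (1071.8, against 913.65 in Sham_Vehicle and 814.75 in BDL_GW4064). Npc1, the lysosomal membrane protein that exports cholesterol, read 122.0 and 112.8, then 142.6 and 120.9, then 113.7 and 94.9. Npc2, the soluble lysosomal protein that hands cholesterol to it, read 1295.0 and 1308.3, then 1196.8 and 1363.3, then 1676.1 and 1548.7. On their brightest probe sets the ligation log2 differences of these 3 genes lay between -0.13 and 0.16. The 2 probe sets of Stard4 differed in sign, and its other probe set gave 0.23 ± 0.20 (SE).

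**Figure D2:**
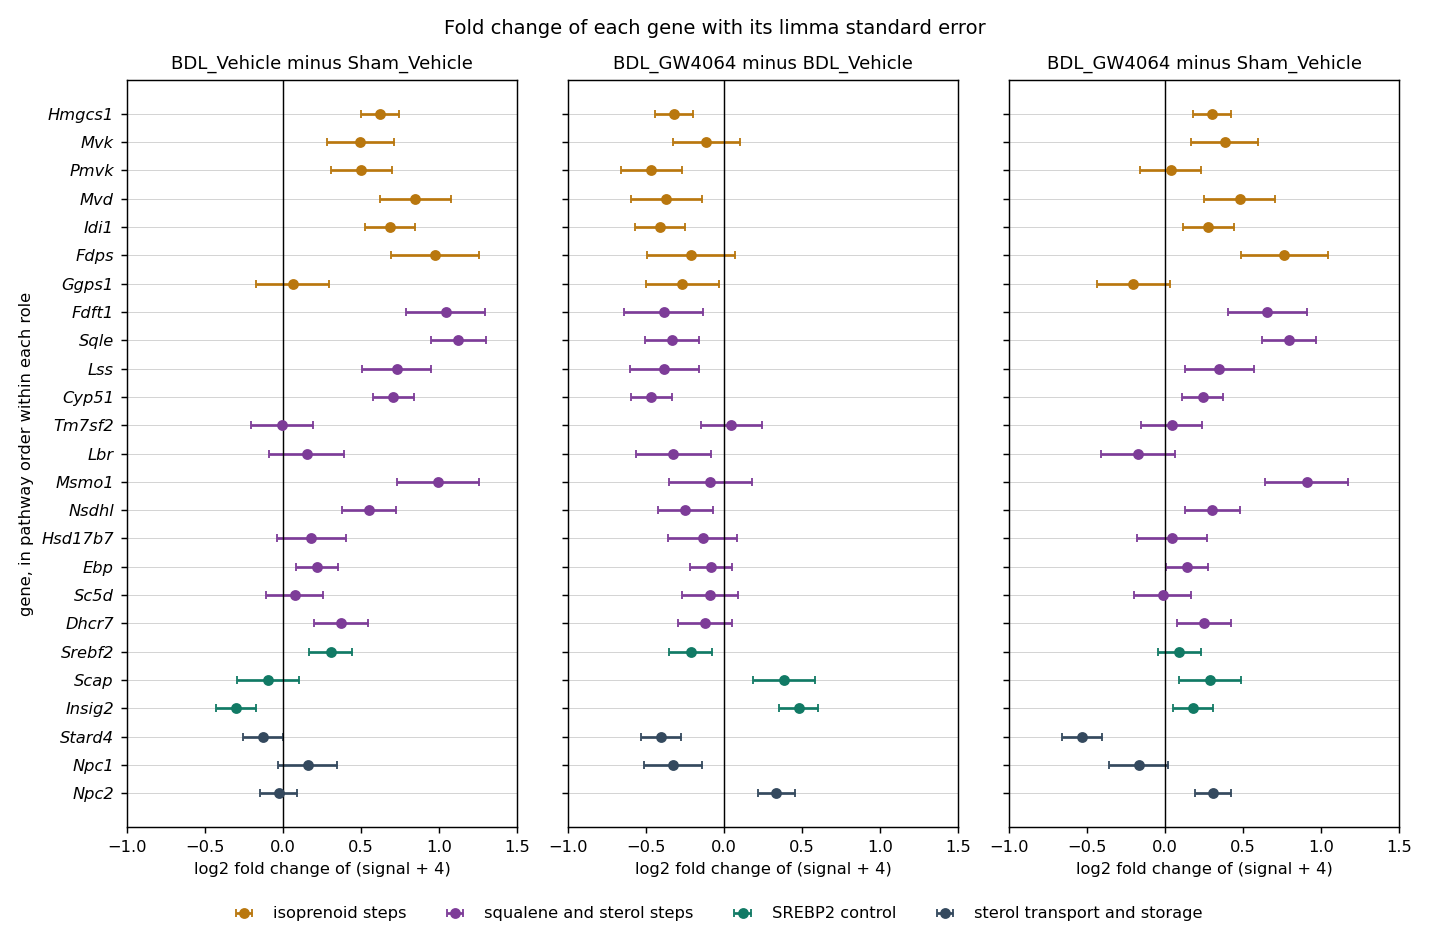
Log2 fold change of signal + 4 (horizontal axis) with its limma SE (bars) for each of the 25 genes, in pathway order within each role and coloured by role, for the 3 pairs of groups. In the left panel 18 of 19 enzymes lie above 0, from -0.01 for Tm7sf2 to 1.12 for Sqle, and in the middle panel 18 of 19 lie below 0.

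GW4064 was then compared with vehicle among ligated mice. Relative to BDL_Vehicle, the enzymes were modestly lower in BDL_GW4064, among them Pmvk (1.38-fold), Cyp51 (1.38-fold) and Idi1 (1.33-fold). Of the 19 enzymes, 18 had lower values and 1 had a higher value, with a median log2 difference of -0.27, where all genes had a median of 0.00 and 49.6% were lower. These values are from the brightest probe sets. Of 14 members with over 1 tested probe set, 3 had mixed signs, with higher values on another probe set of Mvk (0.15), Sc5d (0.11) and Ggps1 (0.055). Both BDL_GW4064 arrays lay below both BDL_Vehicle arrays in 7 of the 19, against 16.7% of all genes. Insig2, Scap, Npc2 and Tm7sf2 were the members with higher values. No member passed an adjusted p of 0.05 in limma, as 0.0516% of 13575 probe sets did, and the smallest adjusted p was 0.386, for Insig2. At an unadjusted limma p under 0.05, 5 members were lower (Cyp51, Stard4, Hmgcs1, Idi1 and Pmvk) and 2 were higher (Insig2 and Npc2), against 2.41% and 5.06% of all genes. The 5 became 1 without BDL_Vehicle replicate 2 and 1 without BDL_GW4064 replicate 1. Without BDL_Vehicle replicate 2, 10 of the 25 members had higher values in BDL_GW4064, where 4 did with all arrays.

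Cyp51 had the smallest p of the enzymes, with a log2 difference of -0.46 ± 0.13 (SE, limma adjusted p = 0.412), and Hmgcs1 had -0.32 ± 0.12 (limma adjusted p = 0.575). All 4 probe sets of Hmgcs1 and both of Cyp51 and Idi1 were lower with GW4064. In Idi1 they spanned -0.996 to -0.41. Pmvk had -0.47 ± 0.20 (limma adjusted p = 0.65), Idi1 -0.41 ± 0.16 (limma adjusted p = 0.608) and Lss -0.38 ± 0.22 (limma adjusted p = 0.795). Fdft1 (-0.39 ± 0.25), Mvd (-0.37 ± 0.23), Sqle (-0.33 ± 0.17), Nsdhl (-0.25 ± 0.17), Fdps (-0.21 ± 0.28) and Msmo1 (-0.087 ± 0.26) had limma adjusted p of 0.766 to 0.979. The size and order of these differences depended on single arrays. The sign of Msmo1 and Fdps turned without BDL_Vehicle replicate 2 (0.30 and 0.083), while without BDL_Vehicle replicate 1 they had -0.47 and -0.50. Without BDL_Vehicle replicate 2, Sqle, Fdft1 and Mvd each had -0.18, Lss had -0.15 and Pmvk -0.31, and without BDL_Vehicle replicate 1 Fdft1 had -0.59, Mvd -0.56 and Lss -0.61. Of the 11 enzymes, Cyp51 and Hmgcs1 were the 2 whose values moved by less than 1.5 times whichever array was left out.

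The BDL_GW4064 arrays also differed from each other. Without its replicate 1, Fdft1 had -0.079, Mvd -0.13, Nsdhl -0.13, Sqle -0.16, Idi1 -0.22 and Lss -0.24, and Msmo1 turned (0.051). Without its replicate 2, Fdft1 had -0.69, Mvd -0.61, Sqle -0.50 and Msmo1 -0.22.

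Outside the enzymes, the brightest Insig2 probe set was higher in both BDL_GW4064 arrays than in any other array. Its log2 difference from BDL_Vehicle was 0.48 ± 0.13 (SE, limma adjusted p = 0.386). The 3 Insig2 probe sets gave 0.094 to 0.48. Against Sham_Vehicle they differed in sign, with 0.18, 0.33 and -0.34. On the last, both BDL_GW4064 arrays (201.1 and 222.2) lay below both Sham_Vehicle arrays (256.9 and 279.8). Npc2 was higher by 0.33 ± 0.12 (SE, limma adjusted p = 0.55) and both its probe sets separated the groups. Stard4 had a log2 difference of -0.40 ± 0.13 (SE, limma adjusted p = 0.47) and its other probe set gave -0.38. Stard4 thus had a lower value with GW4064 on both probe sets, while its ligation values differed in sign (-0.13 and 0.23).

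BDL_GW4064 was also compared with Sham_Vehicle. This outer comparison shares both Sham_Vehicle arrays with the ligation comparison, so a low Sham_Vehicle signal enters both. Of the 19 enzymes, 16 were higher and 3 lower than in Sham_Vehicle, with a median log2 difference of 0.28, and 51.8% of all genes had higher values. Both BDL_GW4064 arrays lay above both Sham_Vehicle arrays in 10 of the 19, against 25.0% of all genes. No member passed an adjusted p of 0.05 in limma, as 0.0368% of 13575 probe sets did. At an unadjusted limma p under 0.05, 6 members were higher and 1, Stard4, was lower, against 7.15% and 7.08% of all genes. By their brightest probe sets the 6 were Sqle, Msmo1, Fdps, Fdft1, Npc2 and Hmgcs1. They became 1 when Sham_Vehicle replicate 2 was left out, 1 when BDL_GW4064 replicate 2 was, and 0 with a term for the array set.

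Sqle (0.79 ± 0.17, limma adjusted p = 0.176) and Msmo1 (0.91 ± 0.26, limma adjusted p = 0.203) were higher with GW4064 than in sham, as were Fdps (0.76 ± 0.28), Fdft1 (0.66 ± 0.25) and Mvd (0.48 ± 0.23). Pmvk (0.037 ± 0.20), Cyp51 (0.24 ± 0.13), Idi1 (0.28 ± 0.16), Hmgcs1 (0.30 ± 0.12), Nsdhl (0.30 ± 0.17), Lss (0.35 ± 0.22) and Insig2 (0.18 ± 0.13) lay closer to sham. With a term for the array set, Sqle had 0.49, Fdft1 0.25, Fdps 0.18, Msmo1 0.14 and Mvd 0.092, so the order was not kept. The Sham_Vehicle and BDL_GW4064 arrays lie in different sets, so that term rests on the difference between the BDL_Vehicle arrays. It cannot tell a difference between sets from scatter between those arrays, and this also limits the count with that term above. The limma adjusted p of the other 10 genes, with no such term, lay between 0.265 and 0.947. Stard4 had -0.53 ± 0.13 (limma adjusted p = 0.176), and its other probe set had overlapping arrays.

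The outer values also moved with single arrays. Without Sham_Vehicle replicate 2, Fdft1 had 0.43, Fdps 0.35, Lss 0.16, Idi1 0.14 and Nsdhl 0.11. Without BDL_GW4064 replicate 2, Fdft1 had 0.35, Mvd 0.24, Lss 0.20, Hmgcs1 0.20, Nsdhl 0.18, Cyp51 0.16 and Idi1 0.090. Without Sham_Vehicle replicate 1 the values were higher for Fdps (1.17), Lss (0.54) and Nsdhl (0.50), and without BDL_GW4064 replicate 1 for Idi1 (0.46). Pmvk, near 0 with all arrays, spanned -0.15 to 0.23, and Sqle lay between 0.62 and 0.96, whichever array was left out.

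The 3 groups fell in the same order for most enzymes. The mean was lowest in Sham_Vehicle, intermediate in BDL_GW4064 and highest in BDL_Vehicle for 15 of 19 enzymes and for Srebf2, which made 16 of 25 members against 14.9% of all genes. This holds for the brightest probe set of each gene. Another probe set had BDL_GW4064 below Sham_Vehicle for Idi1 (log2 difference -0.43, arrays apart), Lss (-0.17) and Cyp51 (-0.065). Another of Mvk had BDL_GW4064 above BDL_Vehicle (0.15). The other tested probe sets of Hmgcs1, Mvd, Fdft1, Hsd17b7 and Srebf2 kept the order. The ligation and GW4064 comparisons, in turn, share the BDL_Vehicle arrays, so a high BDL_Vehicle signal enters both. BDL_Vehicle replicate 2 was the highest array in 18 of 25 members, against 13.8% of all genes, and Sham_Vehicle replicate 2 was the lowest in 17, against 20.8%. These were also the arrays with the lowest and the highest 3' to 5' actin ratio (1.09 and 1.73). On the Gapdh control Sham_Vehicle replicate 2 was again the highest (0.88). BDL_Vehicle replicate 2 (0.81) was not the lowest there, and Sham_Vehicle replicate 1 (0.70) was. The part of RNA quality in the result was not tested.

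Within the array sets given by the 18S rRNA control, the ligation difference rests on BDL_Vehicle replicate 1 and the GW4064 difference on BDL_Vehicle replicate 2, so these differences share no array. They equal the differences from a term for the array set, and from leaving out the other BDL_Vehicle replicate. The median log2 difference between BDL_Vehicle replicate 1 and the Sham_Vehicle mean was 0.28 over the 25 members, and that between the BDL_GW4064 mean and BDL_Vehicle replicate 2 was -0.34. Over all genes both medians were 0.00. Higher in the first and lower in the second were 17 of 25 members, among them 15 of 19 enzymes, against 25.8% of all genes. Insig2, Scap and Npc2 were lower in the first and higher in the second. BDL_Vehicle replicate 1 lay above both sham arrays in 17 members, against 33.3% of all genes, and BDL_Vehicle replicate 2 above both BDL_GW4064 arrays in 20, against 30.9%.

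**Figure D3:**
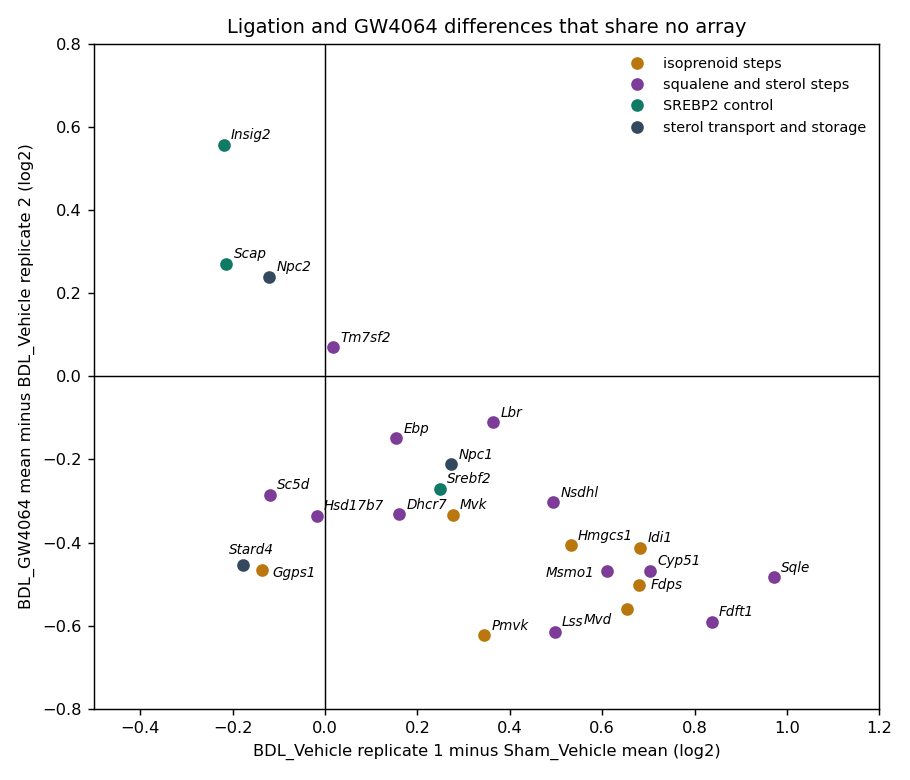
Log2 difference of BDL_Vehicle replicate 1 from the Sham_Vehicle mean (horizontal axis) against that of the BDL_GW4064 mean from BDL_Vehicle replicate 2 (vertical axis), 1 point per gene, coloured by role. The 2 differences use separate arrays, and 17 of 25 genes lie to the right of 0 and below 0, with Insig2, Scap and Npc2 at the upper left.

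Other genes tied to sterol synthesis and SREBP processing gave a mixed picture. Of 11 listed, 8 were tested, and 6 had higher and 2 lower values after ligation, with a median log2 difference of 0.088. Tmem97, a sterol-regulated membrane protein (0.53 ± 0.19, SE), Erg28, a scaffold of the demethylation complex (0.34 ± 0.14), and Aacs, which activates acetoacetate (0.66 ± 0.27), had both BDL_Vehicle arrays above both Sham_Vehicle arrays, with a limma adjusted p of 0.751 each. These 3, picked by smallest ligation p, had lower values with GW4064 than in BDL_Vehicle (-0.24, -0.25 and -0.24), and over the list 6 of 8 were lower. Stard3, a sterol carrier singled out after its values were seen, was higher in both comparisons (0.034 and 0.069).

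Fatty acid synthesis genes, the main field of the sister factor SREBP1, did not shift together after ligation, with 5 of 12 higher, 7 lower and a median of -0.054. Scd2, a stearoyl-CoA desaturase, read 1526.3 and 915.9 in Sham_Vehicle, 495.3 and 435.7 in BDL_Vehicle and 580.3 and 426.1 in BDL_GW4064 (ligation log2 difference -1.34 ± 0.25, SE, limma adjusted p = 0.437). Scd1 had -1.39 ± 0.36 (limma adjusted p = 0.68) and the elongase Elovl6 0.65 ± 0.13 (limma adjusted p = 0.475). The list therefore held genes with large differences of both signs, unlike the cholesterol enzymes.

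Genes of cholesterol absorption and efflux mostly had lower values after ligation, 7 of 10 tested of 12 listed, with a median of -0.47. Of all 7919 genes, 4129 had lower values. Abca1, the cholesterol exporter and a target of the sterol receptor LXR, read 299.8 and 471.9 in Sham_Vehicle, 103.9 and 116.7 in BDL_Vehicle, and 116.3 and 167.6 in BDL_GW4064 (ligation log2 difference -1.74 ± 0.26, SE, limma adjusted p = 0.2). Mylip, an LXR-induced ubiquitin ligase, had -0.998 ± 0.19 (limma adjusted p = 0.437), and Abcg8, a subunit of the exporter of sterols to the lumen, had -0.99 ± 0.19 (limma adjusted p = 0.443). In all 3, picked by smallest ligation p, the BDL_Vehicle arrays lay below both sham arrays, as they did in 1559 of all 7919 genes. With GW4064 the list had 8 of 10 higher values relative to BDL_Vehicle and a median of 0.30, against 3991 of all 7919 genes with higher values. Relative to sham, Abca1 was lower with GW4064 (-1.40 ± 0.26, limma adjusted p = 0.163).

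**Figure D4:**
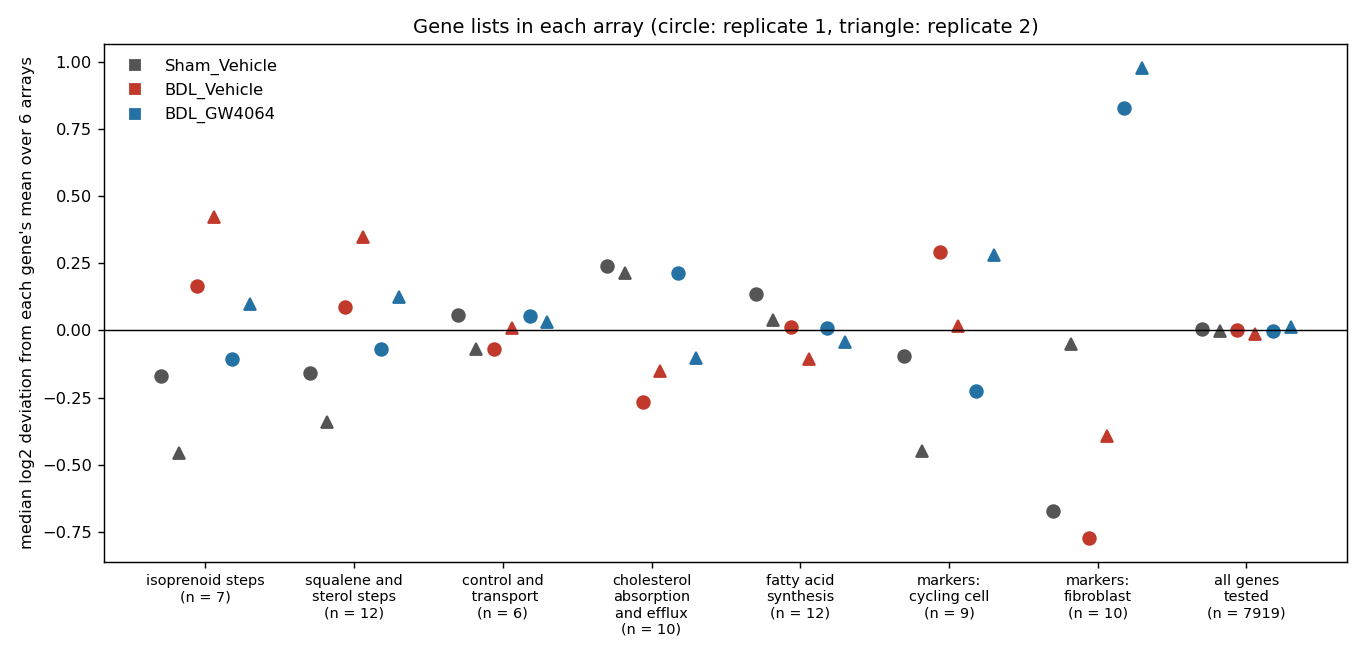
Median over the genes of a list of the log2 deviation from each gene's own mean over the 6 arrays (vertical axis), 1 point per array, circles for replicate 1 and triangles for replicate 2. Both BDL_Vehicle arrays are the highest for squalene and sterol enzymes except that BDL_GW4064 replicate 2 (0.12) exceeds BDL_Vehicle replicate 1 (0.087), and both are the lowest for absorption and efflux genes, while all genes stay within 0.02 of 0.

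Markers of other cells also differed between the groups. Cycling cell genes had higher values after ligation in 9 of 9 tested of 10 listed, with a median of 0.38 and a summed signal of 2643.5 to 3143.7 in Sham_Vehicle, 3430.0 to 3952.2 in BDL_Vehicle and 3133.7 to 3853.9 in BDL_GW4064. No cycling marker was at 0. Among the BDL_Vehicle arrays the cycling genes were higher in replicate 1 (median deviation 0.29, against 0.015 in replicate 2). The 19 synthesis enzymes were higher in replicate 2 (0.39, against 0.14). In each of the other groups both lists were higher in the same replicate. In Sham_Vehicle replicates 1 and 2 the cycling genes had -0.094 and -0.45, and the enzymes -0.17 and -0.38. In BDL_GW4064 the cycling genes had -0.23 and 0.28, and the enzymes -0.10 and 0.12. The part of cycling cells in the enzyme differences was not tested. Of the enterocyte markers, 2 of 7 tested were higher and 5 lower after ligation, with a median of -0.026 and summed signals of 29818.7 to 31125.7 in Sham_Vehicle and 26472.5 to 30396.9 in BDL_Vehicle. Among them the lactase gene Lct read 2652.8 and 3581.5 in Sham_Vehicle against 1935.1 and 2005.7 in BDL_Vehicle (log2 difference -0.64 ± 0.18, SE, limma adjusted p = 0.742), and Apoa4 was also lower with the arrays apart (-0.26). Lct and Apoa4 were singled out after their values were seen.

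With GW4064 the stromal markers were higher than in BDL_Vehicle. Fibroblast markers had higher values in 10 of 10, with summed signals of 3655.9 to 4546.3 in BDL_GW4064, 1267.8 to 1603.1 in BDL_Vehicle and 1273.1 to 2032.8 in Sham_Vehicle. Smooth muscle markers were higher by group mean in 7 of 7 tested of 8 listed. Their summed signals were 1017.7 in BDL_GW4064 replicate 1 and 11939.9 in replicate 2. They were 540.0 to 829.7 in BDL_Vehicle and 852.3 to 1000.0 in Sham_Vehicle, so replicate 1 lay near sham. In that array Des (22.3) and Actg2 (71.0) fell between the BDL_Vehicle signals. Macrophage markers were higher in 7 of 7, with summed signals of 2512.2 to 2783.5 against 1702.7 to 2254.5. None of these markers was at 0 in any array. BDL_GW4064 replicate 2, the array with the high smooth muscle signal, had the higher median of the 19 synthesis enzymes (0.12, against -0.10 in replicate 1). The part of these stromal and macrophage markers in the result was not tested.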

How the data were processed

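Ileal RNA of 6 samples in 3 groups of 2 was hybridised to single-colour arrays, after 5 µg of total RNA per sample had been copied to biotinylated cRNA, per the labels' protocols. The deposited values are MAS5 signal intensities on a linear scale, per the submitters' processing notes; no source used here gives its version. Of 22690 probe sets, 64 controls were left out, and 20380 of the others were annotated to 1 gene. Signals were analysed as log2(signal + 4), and the lowest 40% of probe sets by mean were dropped (signal 37.1), which left 13575. Fold changes of dim genes come out too small on this scale. Each gene was represented by its brightest probe set. Groups were compared with limma (version 3.58.1, R 4.3.3), with all 6 arrays, 1 mean per group and a signal trend in the variance prior (3 residual and 4.71 prior degrees of freedom), and the 13575 p-values of a comparison were adjusted after Benjamini and Hochberg. The script was tested on simulated data. The number of arrays, 2 in each group, limits the precision.

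The members and gene lists were chosen with earlier results of these data known, so counts and medians of a list are descriptions set beside all genes. Full statistics are given for the 12 members whose arrays did not overlap after ligation at an unadjusted limma p under 0.05, and for up to 3 genes of each other list by smallest ligation p. The sequence of Insig1, also listed, was left out because the gene has no value here. The motifs were chosen in the same knowledge. Gene identifiers of all 25 members matched RefSeq symbols of GRCm38.p6. The alternatives tried are given in the closing section.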

Additional observations from a re-analysis of the deposited data

How the results depend on the processing

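Across 18 alternatives, 0 of the 25 members passed the adjusted threshold in limma in any of the 3 comparisons. Of 648 values of the 12 members with full statistics, 640 kept their sign, a count that leaves out how far their size moved. The member medians were 0.28 to 0.50 after ligation and -0.34 to -0.23 with GW4064 over the alternatives that kept all arrays or a whole pair of groups. With the array set as a term, 7 members were higher and 0 lower after ligation at an unadjusted p under 0.05, 1 was higher with GW4064, 2 probe sets were called with GW4064 and 0 in the outer comparison, where 0 members were higher, the member median was 0.088 and the signs of Lss (-0.12) and Pmvk (-0.28) turned. With the replicate number as a replicate block, 2, 4 and 0 probe sets were called in the ligation, GW4064 and outer comparisons, against 4, 7 and 5, and 0 members were lower after ligation and 3 with GW4064. The labels do not say what a shared number stands for. Deviations of same-numbered arrays had correlations of 0.04, 0.09 and -0.12. With 2 arrays per group these cannot show whether such arrays share more than a number. Without the signal trend, the calls were 1, 2 and 0, 0 members were lower after ligation, 2 lower and 1 higher with GW4064, and 3 higher in the outer comparison. Without the filter the calls were 2 after ligation and 4 with GW4064, the robust prior gave 12 with GW4064, median centring gave 3 in the outer comparison, and means over a gene's probe sets gave 15 with GW4064 and 10 in the outer comparison, where Idi1 turned (-0.076). The single member lower after ligation, Insig2, left that count (0) under median centring, the 60% filter, the robust prior, means over probe sets and the fit to 4 arrays, and 1 member was higher with GW4064 under median centring and means over probe sets. Leaving out 1 array at a time gave 1 to 6, 2 to 48 and 0 to 29 calls. After ligation it gave 7 to 13 members higher and 0 to 1 lower, with a median of 0.28 to 0.58. With GW4064 it gave 4 to 10 members with any higher value, 1 to 2 higher and 1 to 6 lower, with Msmo1 at -0.47 to 0.30 and Fdps at -0.50 to 0.083. In the outer comparison it gave 1 to 7 members higher and Pmvk at -0.15 to 0.23. An array left alone in its group was assumed to vary like the others. The cause of these shifts was not tested.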
